A study of Mus musculus with 3 samples.

Results

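The C-type lectin receptors of macrophages described here are 10 genes: Clec4a1, Clec4a2, Clec4a3, Clec4d, Clec4e, Clec4n, Clec5a, Clec7a, Clec10a and Clec12a. They were taken by gene symbol from the 55536 annotated mouse genes of the deposited gene tables, and every one of the 10 symbols matched 1 gene. The 3 libraries hold total RNA, depleted of ribosomal RNA, from the cytosolic fraction of bone-marrow-derived macrophages (BMDM) of C57BL/6J mice. BMDM are primary macrophages grown from bone marrow precursors in culture. All 3 belong to 1 group: the cells met Lipid A, the part of lipopolysaccharide that Toll-like receptor 4 senses, at 100 ng/ml for 12 h, spent 12 h after washing it out, and met Lipid A again at 100 ng/ml for 90 min. No untreated, singly exposed or nuclear library was analysed here, so the levels below describe this one state. The labels number the libraries as biological replicates 1, 2 and 3 from separate biosamples of the same donor record, and give neither sex nor age.

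C-type lectin receptors are transmembrane proteins that bind sugars, glycolipids and other ligands of microbes and damaged cells through a lectin-like domain. Activating members reach the kinase Syk through an ITAM (an activating tyrosine motif): Clec4d (MCL), Clec4e (Mincle) and Clec4n (Dectin-2) borrow it from the Fc receptor gamma chain Fcer1g, Clec5a (MDL-1) from the adaptor DAP12 (Tyrobp), and Clec7a (Dectin-1), a receptor for beta-glucan of fungal cell walls, carries a shortened one in its own tail. Syk then acts through the Card9, Bcl10 and Malt1 complex towards NF-kappaB. Clec4a2 (DCIR) and Clec12a (MICL) instead carry an inhibitory tyrosine motif, the ITIM, that recruits phosphatases such as SHP-1 (Ptpn6), and Clec10a (MGL1) is an endocytic receptor for galactose-type sugars. Clec4a1 and Clec4a3 are relatives of Clec4a2.

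A set of alternatively spliced coding segments is printed because it sets which form of a receptor the measured transcripts encode. Each segment was read from the GENCODE M21 transcripts on mm10, in the direction of the gene, with the alternative segment in capitals and 12 bases of the spliced transcript on either side in lower case. The Clec7a segment, at chr6:129468869-129468993 on the minus strand, matches the stalk between membrane and lectin domain that the longer Dectin-1 form has and the shorter lacks. It is printed from the transcript typed as polymorphic pseudogene. There its first base completes TGA, a stop codon in the only frame open through the rest of the segment. The last 10 bases printed before the segment are absent from the shorter form too, whose coding length is 597 nt against 732 nt. The Clec4n segment lies at chr6:123232093-123232194 (plus strand), the Clec4d segment at chr6:123267992-123268068 (plus strand), the Clec4a2 segment at chr6:123139057-123139128 (plus strand) and the Clec5a segment at chr6:40584356-40584430 (minus strand).
Clec7a stalk segment, 125 nt: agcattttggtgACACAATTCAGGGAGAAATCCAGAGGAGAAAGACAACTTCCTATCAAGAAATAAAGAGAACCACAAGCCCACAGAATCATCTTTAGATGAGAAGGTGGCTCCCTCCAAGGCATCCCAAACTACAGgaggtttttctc
Clec4n segment, 102 nt: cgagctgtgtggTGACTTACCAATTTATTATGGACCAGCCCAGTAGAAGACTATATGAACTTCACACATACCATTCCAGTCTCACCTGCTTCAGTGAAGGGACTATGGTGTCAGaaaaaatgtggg
Clec4d segment, 77 nt: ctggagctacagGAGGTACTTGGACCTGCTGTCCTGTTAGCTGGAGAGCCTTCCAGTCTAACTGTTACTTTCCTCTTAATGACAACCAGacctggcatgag
Clec4a2 segment, 72 nt: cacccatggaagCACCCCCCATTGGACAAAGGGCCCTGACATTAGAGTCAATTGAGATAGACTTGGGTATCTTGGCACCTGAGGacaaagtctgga
Clec5a segment, 75 nt: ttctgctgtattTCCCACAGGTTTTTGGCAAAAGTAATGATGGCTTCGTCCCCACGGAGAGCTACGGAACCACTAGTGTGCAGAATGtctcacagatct

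The promoters of Clec4e and Clec4d are printed because these neighbouring genes, on opposite strands, stood among the highest of the 10 and kept nearly the same ratio in every library. Both windows run from 250 bases before the transcript start to 50 bases after it and come from RefSeq (GRCm38.p6), at chr6:123289822-123290121 on the minus strand for Clec4e and chr6:123261857-123262156 on the plus strand for Clec4d. Capitals mark matches, on either strand, to the motifs searched.
Clec4e promoter: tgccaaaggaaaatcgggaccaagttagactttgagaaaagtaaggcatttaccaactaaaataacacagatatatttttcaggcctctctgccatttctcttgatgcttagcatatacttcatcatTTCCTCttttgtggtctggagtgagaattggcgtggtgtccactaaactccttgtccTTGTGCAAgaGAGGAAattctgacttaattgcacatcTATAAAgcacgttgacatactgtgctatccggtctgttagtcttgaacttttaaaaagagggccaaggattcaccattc
Clec4d promoter: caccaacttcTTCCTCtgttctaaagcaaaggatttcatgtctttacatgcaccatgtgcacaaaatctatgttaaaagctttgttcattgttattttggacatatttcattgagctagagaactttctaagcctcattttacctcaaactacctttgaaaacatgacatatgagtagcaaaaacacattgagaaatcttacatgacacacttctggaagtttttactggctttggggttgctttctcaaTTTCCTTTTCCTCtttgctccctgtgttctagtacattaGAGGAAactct
The motifs were C/EBP as TTGCNNAA, PU.1 as GAGGAAGT, its core GAGGAA, NF-kappaB as GGGA, NN and TTCC in a row, AP-1 as TGANTCA, the interferon-stimulated response element (ISRE) as GAAA, NN and GAAA in a row and the TATA box as TATAAA. The Clec4e window held 1 C/EBP match at -66 to -59, PU.1 core matches at -123 to -118 and at -56 to -51, and a TATA box match at -29 to -24. The Clec4d window held 3 PU.1 core matches, the first base of each at -240, 8 and 40, and 1 ISRE match at 1 to 10 that overlaps the core match at 8. Of 32851 RefSeq promoter windows of the same length, 10.8% held the C/EBP motif, 28.3% the PU.1 core, 13.6% the TATA box, 3.44% the ISRE, 7.81% the AP-1 motif and 1.47% the NF-kappaB motif. RefSeq windows were matched for 8 of the 10 genes. None of those windows held the letters of the NF-kappaB motif, and the longer PU.1 motif, found in 3.2% of all windows, was in none of them either.

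Depth differed between the libraries, with 40730514 expected counts for replicate 1, 70484996 for replicate 2 and 49726063 for replicate 3. Nuclear protein-coding genes took 33.2%, 29.6% and 28.0% of the TPM (a relative transcript level, corrected for transcript length and library size), so the TPM of a protein-coding gene moves with this share, and values rescaled to a fixed total over these genes are given where it matters. All 8 macrophage markers reached 1 TPM in every library, led by Lyz2 at 3262 ± 426 TPM, Adgre1 at 652 ± 113 TPM, Cd68 at 642 ± 93.1 TPM and Fcgr1 at 229 ± 64.8 TPM (SD, n = 3 libraries). None of 8 neutrophil markers reached 1 TPM, their sum was 0.79 to 1.20 TPM per library, and Ly6g and Retnlg were at 0 counts, which allows at most 0.12 and 0.137 TPM at 3 counts per library. The highest neutrophil markers were Ngp at 0.59 TPM and Camp at 0.193 TPM. Of 8 dendritic cell markers only Ccr7 did, at 1.45 ± 0.169 TPM; the sum was 1.60 to 1.97 TPM, Cd209a was at 0 counts, and Flt3 had 0.04 TPM and Zbtb46 0.0733 TPM. All 4 monocyte markers did, among them Plac8 at 26.4 TPM, Ly6c2 at 12.4 TPM and Ccr2 at 2.13 TPM, with a sum of 38.9 to 66.6 TPM that was highest in replicate 1; their part in the receptor levels was not tested. In such bulk libraries, fewer cells that express a gene and less of its RNA per cell cannot be told apart.

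All 10 receptors were present. Each reached 1 TPM in every library, against 16.7% of all 55536 annotated genes and 40.1% of the 22015 nuclear protein-coding genes. All but Clec10a, 9 of the 10, reached 10 TPM in every library, against 16.5% of nuclear protein-coding genes, and Clec4e, Clec4a1 and Clec4a3 reached 100 TPM in every library, against 1.87%. The median of the 10 mean levels was 57.2 TPM, beside 0.13 TPM over nuclear protein-coding genes and 0 over all annotated genes. As the receptors were chosen with earlier results of these data known, these contrasts are in part set by the choice. Clec7a is outside the protein-coding count because the annotation types it as a polymorphic pseudogene, a gene that is intact in some mouse strains and broken in others.

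Together the 10 genes summed to 1103, 1054 and 795 TPM in replicates 1, 2 and 3, a mean of 984 ± 166 TPM. The largest contributor was Clec4e, with 35.2%, 35.1% and 27.6% of that sum. Clec4e, Clec4a1, Clec4d and Clec4a3 together made up 82.8%, 80.3% and 79.7%, and the other 6 receptors held the rest. The share of Clec7a hardly moved, at 2.87%, 2.90% and 2.83%.

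**Figure D1:**
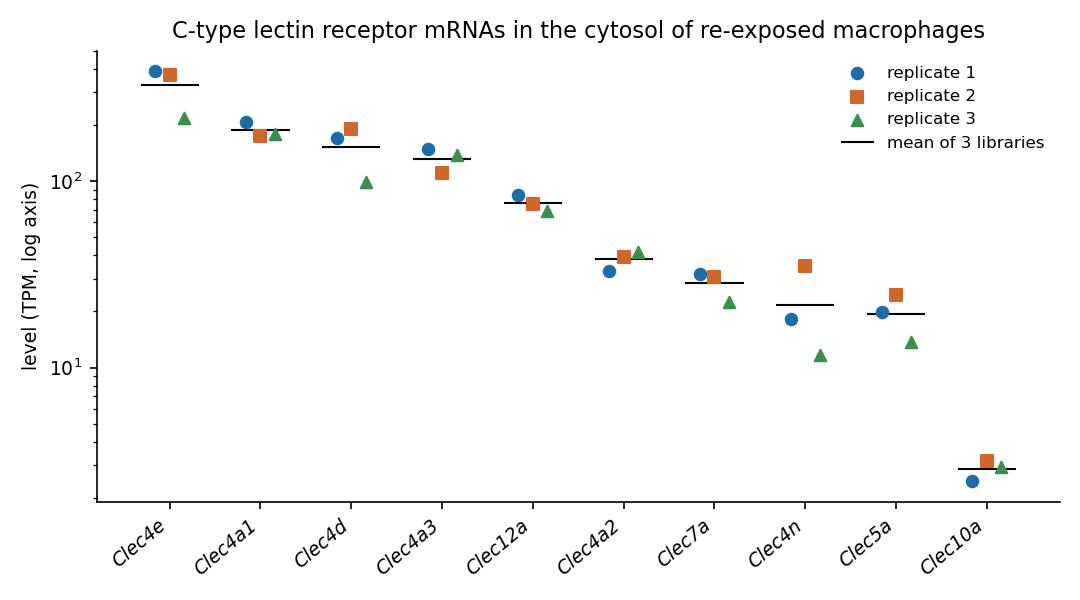
Level of each of the 10 receptor mRNAs (y axis, TPM on a log axis) in replicates 1, 2 and 3, ordered by the mean, which the black bars show. Levels run from 326 TPM for Clec4e to 2.85 TPM for Clec10a, and replicate 3 lies lowest for Clec4e, Clec4d, Clec12a, Clec7a, Clec4n and Clec5a.

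Clec4e, the receptor for mycobacterial cord factor and for ligands of dying cells, had the highest level. It measured 389, 369.8 and 219 TPM in replicates 1, 2 and 3, from 49409, 92082 and 40908 expected counts, a mean of 326 ± 92.7 TPM (SD, n = 3 libraries). Replicate 3 was the low one, with the highest library 1.77 times the lowest. Clec4e (ENSMUSG00000030142.10) lies at chr6:123281789-123289870 on the minus strand of mm10, and ranked 108 among all annotated genes by mean TPM.

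Clec4d, which pairs with Clec4e and shares its adaptor, measured 169, 189.8 and 98.8 TPM in replicates 1, 2 and 3, from 10564, 22656 and 8563 expected counts. Its mean was 153 ± 47.8 TPM, and replicate 3 was again the low library. Within each library Clec4e stood above Clec4d by 1.20, 0.96 and 1.15 on the log2 scale of TPM, a mean of 1.10 ± 0.12, or about 2.15-fold. The spread of this ratio was smaller than that of either gene, since both were lower in replicate 3. Clec4d (ENSMUSG00000030144.4) lies at chr6:123262111-123275265 on the plus strand.

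Clec4n, the receptor for fungal mannans, is the other gene of this adaptor group, and was the most uneven. It measured 18.3, 35.0 and 11.6 TPM in replicates 1, 2 and 3, from 1088, 3989 and 980 expected counts, a mean of 21.6 ± 12.0 TPM. Replicate 2 was 3.00 times replicate 3, and replicate 1 lay nearer to replicate 3. Clec4n was below Clec4d by a log2 ratio of TPM of -2.91 ± 0.41, and Clec4e was above Clec4n by 4.02 ± 0.54, with the same direction in all 3 libraries. The gene (ENSMUSG00000023349.14) lies at chr6:123229843-123247021 on the plus strand.

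Clec7a measured 31.6, 30.6 and 22.5 TPM in replicates 1, 2 and 3, from 3050, 5686 and 3085 expected counts, a mean of 28.2 ± 5.0 TPM. Replicate 3 was lowest here too, by less than for Clec4n. Whether Clec4n or Clec7a was higher depended on the library: the log2 ratio of Clec4n to Clec7a was -0.79, 0.19 and -0.95. Clec4e stood 3.50 ± 0.19 above Clec7a on the log2 scale. Clec7a (ENSMUSG00000079293.11) lies at chr6:129461591-129472779 on the minus strand.

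Clec5a, known as a receptor for flaviviruses, measured 19.8, 24.5 and 13.6 TPM in replicates 1, 2 and 3, from 1806, 4442 and 1695 expected counts, a mean of 19.3 ± 5.43 TPM. Replicate 2 was the high library and replicate 3 the low one, the same order as for Clec4n and Clec4d. Its log2 ratio to Clec4e was -4.07 ± 0.20, and the same sign was seen in all 3 libraries. Clec5a (ENSMUSG00000029915.14) is apart from the other chromosome 6 genes, at chr6:40574894-40585821 on the minus strand.

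Of the inhibitory receptors, Clec12a, which senses uric acid crystals, was the higher. It measured 84.8, 75.3 and 68.8 TPM in replicates 1, 2 and 3, from 11908, 20312 and 13760 expected counts, a mean of 76.3 ± 8.0 TPM. On the scale of nuclear protein-coding genes its highest library was only 1.04 times its lowest, the narrowest spread of the 10. Clec4a2 measured 33.0, 39.3 and 41.9 TPM, a mean of 38.1 ± 4.56 TPM, and was lowest in replicate 1. Clec12a (ENSMUSG00000053063.11) lies at chr6:129342691-129365303 and Clec4a2 (ENSMUSG00000030148.15) at chr6:123106428-123143999, both on the plus strand.

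The relatives of Clec4a2 were higher than Clec4a2 itself. Clec4a1 measured 207, 176 and 178 TPM in replicates 1, 2 and 3, a mean of 187 ± 17.5 TPM, and Clec4a3 measured 148, 111 and 137 TPM, a mean of 132 ± 19.4 TPM. Their lowest library was replicate 2, which was the highest for Clec4n, Clec4d and Clec5a. The log2 ratio of Clec4a1 to Clec4a2 was 2.30 ± 0.31, that of Clec4a1 to Clec4a3 was 0.51 ± 0.15, and that of Clec4a2 to Clec4a3 was -1.79 ± 0.34, each with the same sign in 3 of 3 libraries. Clec4a1 (ENSMUSG00000049037.8) lies at chr6:122921848-122934619 and Clec4a3 (ENSMUSG00000043832.13) at chr6:122952515-122969875, both on the plus strand. The Clec4a genes are related copies, so the counting could divide shared reads between them; the deposited posterior SD of the count was at most 0.28 for Clec4a2 and 0 for Clec4a1 and Clec4a3.

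Clec10a was the lowest of the 10, at 2.46, 3.17 and 2.93 TPM in replicates 1, 2 and 3, from 191, 472 and 315 expected counts, a mean of 2.85 ± 0.361 TPM. Its close paralogue Mgl2 was at 0.14, 0.11 and 0.10 TPM, below 1 TPM in every library. The log2 ratio of Clec10a to Mgl2 was 4.62 ± 0.42 on TPM and 1.78 with 1 TPM added to both, so its size rests on very low Mgl2 values. Against Mrc1, the mannose receptor and another endocytic lectin, at 24.0 ± 6.02 TPM, the log2 ratio of Clec10a was -3.05 ± 0.35. Clec10a (ENSMUSG00000000318.16) is the only one of the 10 off chromosome 6, at chr11:70156197-70170834 on the plus strand.

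Added up, the activating receptors (Clec4d, Clec4e, Clec4n, Clec5a and Clec7a) came to 628, 650 and 366 TPM in replicates 1, 2 and 3, against 118, 115 and 111 TPM for the ITIM receptors Clec4a2 and Clec12a. The activating sum was lower in replicate 3, while the inhibitory sum stayed within 111 to 118 TPM. That steady sum joined opposite moves by TPM, since in replicate 1 Clec4a2 was lowest and Clec12a highest. After rescaling over nuclear protein-coding genes, Clec4a2 was at 99.6, 133 and 149.9 in replicates 1, 2 and 3. Clec12a was at 256, 255 and 246 on that scale. The log2 ratio of the sums was 2.41, 2.50 and 1.72, a mean of 2.21 ± 0.43. These are mRNA sums, dominated on the activating side by Clec4e, and say nothing of receptor protein.

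In the order of mean TPM, Clec4e came first, followed by Clec4a1, Clec4d, Clec4a3, Clec12a, Clec4a2, Clec7a, Clec4n, Clec5a and Clec10a. Of the 9 neighbouring pairs in this order, 5 had the same direction in all 3 libraries. Clec4e over Clec4a1 (log2 ratio of TPM 0.76 ± 0.41), Clec4a3 over Clec12a (0.79 ± 0.22), Clec12a over Clec4a2 (1.00 ± 0.33), Clec4a2 over Clec7a (0.44 ± 0.42) and Clec5a over Clec10a (2.72 ± 0.44) kept their direction, and the ranges of their TPM did not overlap. The remaining 4 pairs, Clec4a1 and Clec4d, Clec4d and Clec4a3, Clec7a and Clec4n, and Clec4n and Clec5a, changed direction between libraries and their ranges overlapped. No p is given for these ratios, because an exact sign-flip test over 3 libraries cannot go below 0.25, two-sided. Without replicate 2 the order itself changed, with Clec4a3 above Clec4d and Clec5a above Clec4n. In that changed order, 8 neighbouring pairs kept 1 direction over the 2 libraries left.

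Whether the receptors varied between the libraries more than genes of like abundance was tested with edgeR on the rounded expected counts, as the deviance of a 1-group fit under the trended dispersion with Benjamini-Hochberg adjustment over 12256 genes. At an adjusted p under 0.05 the test called 240 genes, which is 1.96% of those tested, and 1 of the 10 receptors, Clec4n. Clec4n had an edgeR adjusted p of 2.65e-05 and a biological coefficient of variation of 0.329, against 0.132 for the trend at its abundance. The call depended on replicate 2: without it the edgeR adjusted p was 1, while without replicate 1 it was 1.32e-06 and without replicate 3 it was 0.0494. Clec5a had an edgeR adjusted p of 0.194, which became 0.0323 without replicate 1, and Clec4d had 0.342. The other 7 receptors had an edgeR adjusted p of 1, which does not show that they did not vary. Since all 3 libraries share 1 donor record, these p-values measure the spread between these samples, which may be technical.

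Of the 10 receptors, 6 were lowest in replicate 3: Clec4d, Clec4e, Clec4n, Clec5a, Clec7a and Clec12a. By TPM, 54.7% of the nuclear protein-coding genes at 1 TPM or more were lowest in that library, so the count by TPM is near the background. On the scale of nuclear protein-coding genes, an unplanned comparison, the same 6 receptors were lowest in replicate 3, against a background of 23.8%. Their differences from their own mean in replicate 3 on that scale were -0.47 for Clec4d, -0.42 for Clec4e, -0.64 for Clec4n, -0.35 for Clec5a, -0.20 for Clec7a and -0.03 for Clec12a, in log2 units, so that of Clec12a was close to 0. All 5 activating receptors are among the 6. By TPM, Clec4d, Clec4e, Clec4n and Clec5a had a highest library at least 1.5 times their lowest, as did 13% of the nuclear protein-coding genes at 1 TPM or more.

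**Figure D2:**
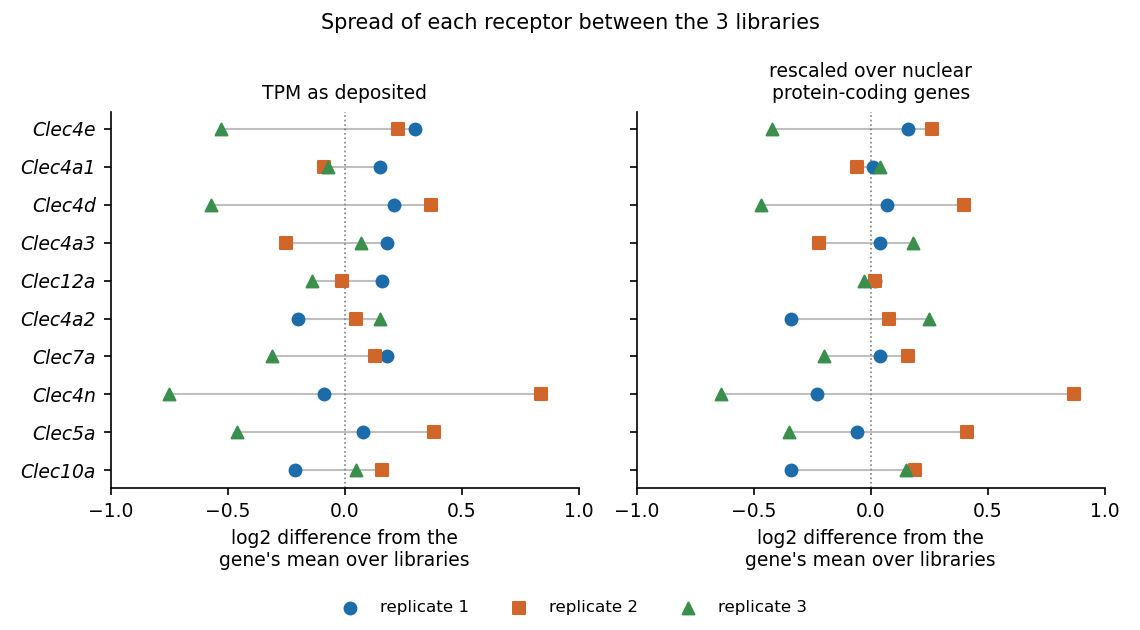
Log2 difference of each library from the gene's own mean (x axis) for each receptor (y axis, ordered by mean TPM), by deposited TPM on the left and rescaled over nuclear protein-coding genes on the right; grey lines join the lowest and highest library. Clec4n spans the widest range, from -0.75 in replicate 3 to 0.84 in replicate 2 by TPM, and Clec12a and Clec4a1 the narrowest after rescaling.

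On chromosome 6, 8 of the 10 genes sit in 2 groups of C-type lectin genes, and the other genes of these groups were low. The receptors were chosen with earlier results of these data known, so this contrast is in part set by the choice. The first, from Clec4a1 to Clec4e, spans 368 kb and holds 13 annotated genes, of which 6 are among the receptors described. Their mean levels were 21.6 to 326 TPM, while none of the 7 other genes reached 1 TPM in all 3 libraries. That level was reached by 40.1% of nuclear protein-coding genes and 16.7% of all annotated genes. Not all of the 7 are lectin genes: Gm44132, Gm44147 and Gm5883 are processed pseudogenes and Gm22946 is a small nuclear RNA gene, each at 0 TPM. The highest of these was Clec4a4, a DCIR relative, at 0.93, 0.87 and 0.65 TPM, followed among the lectins by Clec4b1 at 0.523 TPM and Clec4b2 at 0.00667 TPM. The second, from Clec12a to Clec7a, spans 130.1 kb with 7 annotated genes. Between Clec12a and Clec7a, Clec1b was at 0.467 ± 0.299 TPM, Clec1a at 0.0933 TPM, Clec9a, a marker of dendritic cells, at 0.0667 TPM and Clec12b at 0.0333 TPM. In the first group Clec4a4 and Clec4b1 lie between Clec4a3 and Clec4a2.

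**Figure D3:**
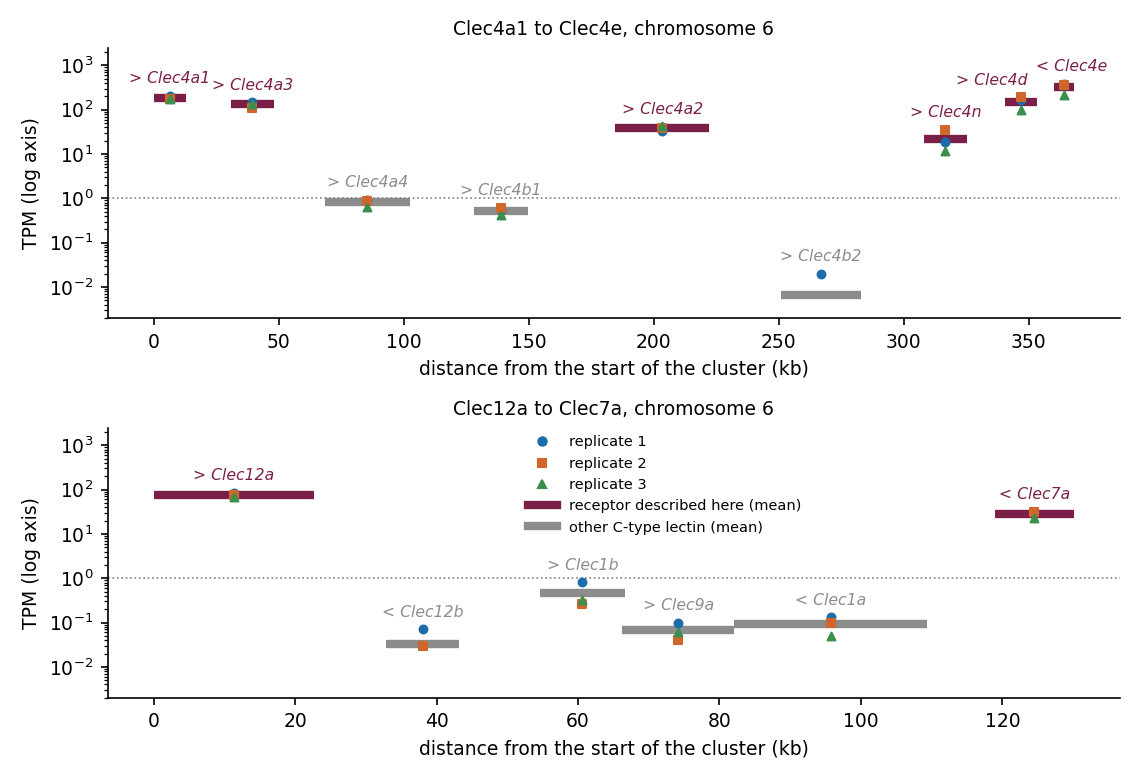
Levels of the C-type lectin genes (y axis, TPM on a log axis) by distance from the start of each gene group on chromosome 6 (x axis, kb); bars span the genes at their mean level, points are the 3 libraries (libraries at 0 are not drawn), and the sign before a name gives its strand. The 8 receptors lie between 21.6 and 326 TPM, and the 7 other lectin genes below the dotted line at 1 TPM.

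Over the 32 other C-type lectin genes listed for myeloid cells, 8 reached 1 TPM in every library (6 in the second quantification). That level was reached by 40.1% of nuclear protein-coding genes and 16.7% of all annotated genes. The median over the 32 was 0.108 TPM. Those 8 were Cd72 (63.0 ± 23.0 TPM), Clec2d (62.0 ± 12.8 TPM), Cd93 (54.6 ± 2.19 TPM), Cd69 (42.9 ± 15.0 TPM), Mrc1, Cd302 (18.8 ± 1.55 TPM), Clec2i (1.74 TPM) and Colec12 (1.48 TPM). Another 8 genes, Mrc2, Cd209a, Cd209b, Cd209d, Cd209e, Clec4f, Clec4g and Asgr1, were at 0 counts in all 3 libraries, which at 3 counts per library allows at most 0.0243 TPM for Mrc2 and 0.0868 TPM for Cd209d. The Cd209 genes encode the DC-SIGN family, and Clec4f and Asgr1 are lectins of Kupffer cells and hepatocytes. Cd72 and Cd69 were lowest in replicate 3, as Clec4n was, but highest in replicate 1, where Clec4n was highest in replicate 2.

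The partners of the activating receptors were present. Of 12 signalling chains and proximal kinases, 11 reached 1 TPM in every library, against 40.1% of nuclear protein-coding genes. Their median was 45.0 TPM. The signalling lists, like the receptors, were chosen with earlier results of these data known. The adaptor Fcer1g measured 1376, 1197 and 1345 TPM in replicates 1, 2 and 3, and the adaptor Tyrobp 694, 601 and 548 TPM. Fcer1g was above Tyrobp by a log2 ratio of 1.09 ± 0.18 in TPM, with the same direction in each library. The chain Fcer1g thus stood above its receptors: the log2 ratio of Clec4e to Fcer1g was -2.04 ± 0.50 and that of Clec4n to Fcer1g was -6.06 ± 0.89. On expected counts, which grow with transcript length, the ratio of Clec4e to Fcer1g was 0.20, so this direction holds per length only. The log2 ratio of Clec5a to its adaptor Tyrobp was -5.03 ± 0.37. Fcer1g also serves Fc receptors, and both adaptors serve other immune receptors.

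Syk, the kinase on which these receptors converge, measured 104, 103 and 92.3 TPM in replicates 1, 2 and 3. Among the Src-family kinases that phosphorylate the ITAM, Lyn averaged 89.6 ± 16.3 TPM and Src 7.75 ± 2.06 TPM, while Fgr was below 1 TPM at 0.80, 0.64 and 0.69 TPM. Of the enzymes and exchange factors that act next, Vav1 averaged 68.7 ± 3.46 TPM, Plcg2 21.3 ± 1.11 TPM, Btk 18.8 ± 0.773 TPM and Vav3 8.83 ± 0.945 TPM. The chain Hcst (DAP10) averaged 6.91 ± 0.0551 TPM.

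All 7 genes of the Card9 list reached 1 TPM in every library, against 40.1% of nuclear protein-coding genes, with a median of 16.2 TPM. Prkcd, the kinase that activates Card9, averaged 69.6 ± 14.7 TPM. Card9 itself measured 8.79, 7.39 and 8.07 TPM in replicates 1, 2 and 3, below its partners Bcl10 at 34.8, 34.6 and 26.4 TPM and Malt1 at 33.2, 30.7 and 25.4 TPM. Card9 was thus the lowest of the complex in all 3 libraries. The kinase Map3k7 (TAK1) averaged 6.80 ± 0.914 TPM, and Rubcn (Rubicon), a negative regulator that binds Card9, averaged 6.07 ± 0.258 TPM.

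All 3 phosphatases of the ITIM receptors reached 1 TPM in every library, against 40.1% of nuclear protein-coding genes, with a median of 40.9 TPM. SHP-1 (Ptpn6) measured 123, 102 and 110.3 TPM in replicates 1, 2 and 3, SHIP-1 (Inpp5d) averaged 40.9 ± 1.85 TPM and SHP-2 (Ptpn11) 9.96 ± 0.760 TPM. The levels of Syk and Ptpn6 were close: their log2 ratio was -0.24, 0.01 and -0.26, so its sign was not the same in every library.

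**Figure D4:**
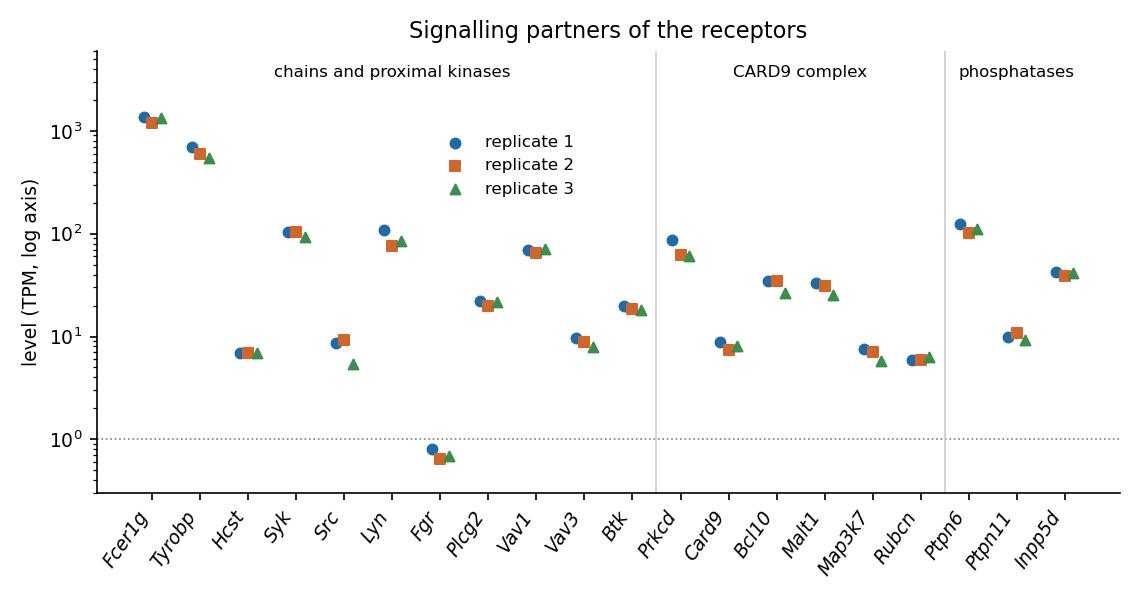
Levels (y axis, TPM on a log axis) of the adaptor chains and proximal kinases, the Card9 complex and the phosphatases named in the text (x axis) in replicates 1, 2 and 3. Fcer1g and Tyrobp lie at the top, Card9 at 7.39 to 8.79 TPM, and Fgr alone lies below the dotted line at 1 TPM.

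Transcript shares describe which form of each receptor was measured. They are the percent of a gene's TPM given to each annotated transcript, and 9 of the 10 receptors have more than 1. For a segment, the share is that of the transcripts that hold it among those that hold or skip it. The files hold 2 separate quantifications of the same libraries, and the second one is given beside the first. The highest transcript was the same in both for all 9.

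The stalk segment of Clec7a, printed above, was held by 68.9%, 69.3% and 68.7% of the spliced transcripts in replicates 1, 2 and 3, a mean of 69.0% ± 0.297 in the first quantification and 70.1% in the second. In the second, replicates 1, 2 and 3 gave 70.5%, 69.2% and 70.5%. The level of Clec7a differed 1.41-fold between libraries. The form without the stalk, with a coding length of 597 nt against 732 nt, took 31.0% ± 0.278 of the gene's TPM. The stalk share includes the transcript typed as polymorphic pseudogene, in which a TGA stop codon precedes the stalk. It is therefore not the share of transcripts that encode the longer form. Both forms of Dectin-1 are known in mice and bind beta-glucan.

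The annotation lists 2 stalk-holding Clec7a transcripts of the same coding length, one of them typed as a polymorphic pseudogene. They differ in which stretch of 10 bases precedes the stalk, at chr6:129468994-129469003 or at chr6:129470889-129470898, both on the minus strand, shown here because the shares of these forms were the most uneven between libraries of the segments measured. Capitals mark the 10 bases. In the reading frame of the stalk given above, the first junction printed reads TGA, a stop codon, where the stalk begins. The second reads GGA there, and its printed bases hold no stop codon in that frame. The equal annotated coding lengths therefore do not show that both transcripts encode the longer form.
Clec7a junction in the transcript typed as polymorphic pseudogene: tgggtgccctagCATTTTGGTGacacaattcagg
Clec7a junction in the other stalk-holding transcript: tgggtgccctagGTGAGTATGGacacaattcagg
The first was held by 35.2%, 53.4% and 48.8% of the spliced transcripts in replicates 1, 2 and 3, and the second by 33.7%, 15.9% and 19.9%. Unlike the stalk share, these shares differed widely between libraries, with a SD of 9.50 and 9.37 percentage points. They belong to the form with TGA at its junction and to the form with GGA there. In the second quantification, replicates 1, 2 and 3 gave 38.8%, 60.8% and 50.5% for the first stretch. For the second stretch they gave 31.65%, 8.43% and 20.1%. Few reads may tell the forms apart by so short a stretch, so the split may be poorly resolved, which was not tested.

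For Clec4n, the 102 nt segment of 34 codons was held by 78.7%, 72.6% and 76.6% of the transcripts in replicates 1, 2 and 3, a mean of 76.0% ± 3.08 and 80.5% in the second quantification. This share was lowest in replicate 2, where its level was highest. The form without it keeps the reading frame and took 23.4% ± 2.98 of the gene's TPM.

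For Clec4d, the 77 nt segment was held by 80.2%, 78.2% and 74.5%, a mean of 77.6% ± 2.90 and 71.6% in the second quantification. Its length is not a multiple of 3, and the transcript without it is annotated as a target of nonsense-mediated decay, the pathway that removes mRNAs with an early stop codon. That transcript took 19.7%, 21.7% and 25.4% of the TPM of Clec4d in replicates 1, 2 and 3. For Clec4e, an 87 nt segment of 29 codons was held by 95% ± 0.782, and by 89.3% in the second quantification. Its leading coding transcript took 83.7% ± 1.5 of the TPM, or 68.6% in the second, where annotated retained-intron transcripts took 15.3% rather than 5.63%.

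For Clec7a, the leading transcript was that typed as polymorphic pseudogene, at 45.7% ± 9.53 of its TPM and 48.4% in the second quantification. Clec5a was the one receptor whose leading transcript has no annotated coding sequence. This transcript, which skips exons that the coding forms hold, took 56.6%, 62.7% and 60.6% of the TPM of Clec5a in replicates 1, 2 and 3, a mean of 59.9% ± 3.11 and 57.2% in the second quantification. Coding transcripts thus held 40.1% ± 3.12 of the TPM of Clec5a, and the 75 nt segment of 25 codons that marks the longer coding form was in 23.6% ± 2.40 of the transcripts, or 27.9% in the second.

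For Clec4a2, the 72 nt segment of 24 codons was held by 27.2%, 32.3% and 31.8% in replicates 1, 2 and 3, a mean of 30.4% ± 2.80 and 29.2% in the second quantification, so the form without it was the more abundant. For its relative Clec4a3, a segment of 102 nt was held by 95.8% ± 0.271. Clec12a was nearly all 1 transcript, at 99.2% ± 0.363, or 92.5% in the second. In Clec10a, the use of an acceptor that adds 3 nt, or 1 codon, was 37.8%, 45.6% and 44.0%, a mean of 42.5% ± 4.11 from few counts. Clec4a1 has 1 annotated transcript.

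**Figure D5:**
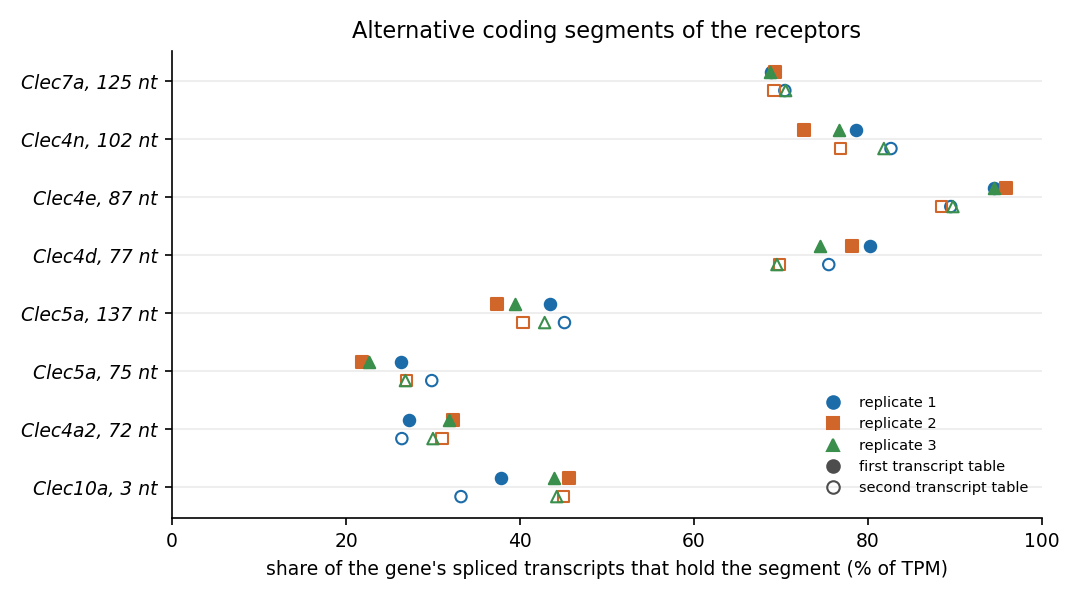
Share of a gene's spliced transcripts that hold each of 8 alternative coding segments of 7 receptors (x axis, % of TPM; segments named by gene and length on the y axis) in replicates 1, 2 and 3, with filled symbols for the first quantification and open symbols for the second. The Clec7a stalk segment stays near 69.0% in every library, the Clec4d and Clec4e segments are lower in the second quantification, and the Clec5a, Clec4a2 and Clec10a segments drawn are below 50% in both.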

How the data were processed

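The submitters measured total RNA of the cytosolic fraction in 3 libraries of 1 group, each made with 1 µg of RNA and cut to inserts between 250 and 400 nt in length. By the deposited notes and labels, values refer to mm10 with GENCODE M21; neither the programs nor the use of strand in counting is stated there. The deposited gene tables hold expected counts, TPM, the posterior SD of the count and 95% credibility bounds. A first deposited transcript table holds TPM and the percent of each gene's TPM per transcript, and a second holds estimated counts and TPM.

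Members were matched by symbol through the transcript identifiers. Means, SDs and log2 ratios within a library used deposited TPM, and 1 TPM in every library counted as detected. Levels and ratios have no test, since there is 1 group. For variability, expected counts were rounded and analysed in edgeR 4.0.16 (R 4.3.3; TMM, filterByExpr) with features that are no genes left out (0.227%, 0.110% and 0.0959% of the counts in replicates 1, 2 and 3); the procedure was tested on simulated data. DESeq2 1.42.0 gave alternative size factors. Depth was 40730514, 70484996 and 49726063 expected counts; a floor for genes at 0 is 3 counts per library, and covers counting error only. Shares of transcripts depend on the annotated transcripts.

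All 10 members, the signalling genes and every gene of a ratio are named, except that some genes of the lists are not reported here; of the other lectins and the cell type markers, up to 4 of the highest and lowest, and beyond these the lectin genes that share the members' gene groups on chromosome 6, those at 1 TPM or more and those at 0 counts. The members and lists were chosen with earlier results of these data known. Alternatives covered the second quantification, rescaling over nuclear protein-coding genes, thresholds of 0.5 and 5 TPM, a pseudocount of 1 TPM, expected counts in place of TPM, other normalizations and filters, and leaving out each replicate.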

Additional observations from a re-analysis of the deposited data

How the results depend on the processing

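The median of the 10 mean levels was 57.2 TPM, 33.4 TPM in the second quantification, 189.9 after rescaling over nuclear protein-coding genes and 198 in the second quantification after the same rescaling, the last an alternative chosen after seeing the data. It was 56.3 to 58.1 TPM when 1 replicate was left out. All 10 receptors reached 1 TPM in every alternative but the threshold of 5 TPM, which 9 reached. Neighbouring pairs with 1 direction numbered 5, and 5 to 8 without 1 replicate. In the latter the order was made anew and only 2 libraries had to match. On expected counts the order placed Clec12a above Clec4d and Clec4a3, Clec7a above Clec4a2 and Clec5a above Clec4n, so that Clec4a3 over Clec12a and Clec4a2 over Clec7a, which kept their direction by TPM in all 3 libraries, were reversed in the order. On these counts the log2 ratio of Clec4e to Fcer1g turned to 0.20; these counts are not corrected for length. The edgeR test called 240 genes, and 82 to 119 genes without 1 replicate; among the receptors it called 1, and 0 to 2 without 1 replicate. Clec4n kept its call under other normalizations, filters and the second quantification (edgeR adjusted p 2.31e-05 to 3.64e-05), and lost it without replicate 2 (adjusted p 1); Clec5a was called without replicate 1 (adjusted p 0.0323). The cause was not tested. Shares of 10 of 17 segments moved by more than 1 SD in the second quantification. No paired analysis was possible because all libraries form 1 group. With 191 to 472 counts, Clec10a has the largest counting error of the 10.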

Other observations

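The deposited 95% credibility bounds did not always enclose the deposited TPM. For Clec10a in replicate 1 the bounds were 2.61 and 4.05 TPM, above the value of 2.46 TPM, and for Clec4a1 in replicate 1 they were 201 and 206.8 TPM, below the value of 207 TPM. The bounds were therefore not used as errors.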
